A study of Arabidopsis thaliana with 6 samples.

Results

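The genes described here are those of Arabidopsis thaliana that the count table names as autophagy genes. They are 39 of its 33037 rows, taken because the gene name begins with ATG or APG and a digit or because the gene description contains the word autophagy. The rule reads names and descriptions only. Of the 39 genes, 34 encode known parts of the autophagy machinery. The other 5 share only a name or a word with it. They are AT3G51800, listed as ATG2 and also known as EBP1; AT3G51790, listed as ATG1 and described as a cytochrome c biogenesis homolog; APG3, a chloroplast peptide chain release factor; ATG2484-1; and AT2G40316, described as autophagy-like. The name ATG2 below means AT3G19190 only.

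RNA was sequenced from closed flower buds of wild-type plants and of plants carrying naa50-1, with 3 biological replicates of each genotype and no other treatment. NAA50 encodes an enzyme that acetylates proteins at their amino end, and the series title links the gene to the breakdown of the tapetum, the inner layer of the anther that nourishes pollen. The labels give neither the background accession, nor plant age, nor where the allele lies in the gene, nor whether plants were pooled, and a closed bud holds sepals, petals, anthers and pistil together.

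Autophagy carries cytoplasm to the vacuole inside a double membrane, the autophagosome. An ATG1 kinase complex starts the process, a lipid kinase complex with ATG6 marks the membrane, and ATG9, ATG2 and ATG18 supply and shape it. Enzymes related to those of ubiquitin conjugation then fix the small protein ATG8 to a membrane lipid, where it holds cargo receptors. In rice, autophagy is known to be needed for the timely breakdown of the tapetum and for pollen maturation.

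The libraries held between 19727584 and 20813563 counts. The RNA of the gene that names the mutant was higher under the mutant label. NAA50 (AT5G11340) measured 26.3 ± 2.39 CPM (counts scaled to library size) in wild-type libraries and 2680 ± 295 CPM in those labelled naa50-1 (SD, n = 3). The log2 fold change was 6.67 (adjusted p = 6.5e-08, edgeR quasi-likelihood test). The labels do not say what kind of allele naa50-1 is, so whether such a rise goes with it cannot be told. Every direction given here is that of the libraries as labelled, with the wild type as reference. Markers of mature pollen summed to 959 to 1288 CPM over 13 genes in the wild-type libraries. In those labelled naa50-1 they summed to 61.1 to 68.7 CPM, and ANX2 was at 0. All 13 had a log2 fold change below 0. At an adjusted p under 0.05 edgeR called 12 of the 13 lower, against 5.59% of all tested genes. Over 14 tapetum markers the sums were 1114 to 1966 and 1226 to 1362 CPM, with means of 1680 and 1296 CPM. A large part of these sums was GRP17, at 903 ± 356 and 449 ± 92.9 CPM (SD, n = 3), the 1 marker that edgeR called lower. Of the 14, 10 had a log2 fold change above 0 and 4 below. Over 8 photosynthesis markers the sums were 20338 to 26691 and 17882 to 21085 CPM, and all 8 had a log2 fold change below 0. None of the 8 passed the edgeR threshold, against 9.53% of all tested genes. An unadjusted p under 0.05 was found in 2, against 19.2%. LHCB1.3 was lower at an adjusted p of 0.00631 in DESeq2 and of 0.00624 in the authors' deposited table, which closely follows DESeq2 and is not independent of it. Over 7 pistil and ovule markers the sums were 141 to 185 and 151 to 161 CPM. Of these 7, 5 had a log2 fold change above 0 and 2 below, and edgeR called 1 (CRC) lower. Wild type replicate 2 had the highest pollen sum and the lowest tapetum sum of the wild-type libraries.

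The ATG8 genes differ in how many codons their coding regions hold behind the site at which the precursor is cut. The protease ATG4 cuts an ATG8 precursor behind a conserved glycine, and only the exposed glycine can be joined to lipid. Printed here are the last codons of each ATG8 gene, 5′ to 3′ on the coding strand, from the RefSeq TAIR10.1 assembly, with the codon of that glycine in capitals.
ATG8A (chr4:11656759-11656809, plus strand): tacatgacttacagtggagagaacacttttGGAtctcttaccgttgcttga
ATG8B (chr4:2328663-2328713, minus strand): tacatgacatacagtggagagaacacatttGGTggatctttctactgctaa
ATG8C (chr1:22934212-22934253, plus strand): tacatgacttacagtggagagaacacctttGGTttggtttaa
ATG8D (chr2:2083211-2083255, minus strand): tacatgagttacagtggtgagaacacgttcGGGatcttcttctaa
ATG8E (chr2:18625479-18625526, plus strand): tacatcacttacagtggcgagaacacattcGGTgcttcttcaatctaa
ATG8F (chr4:9306882-9306929, minus strand): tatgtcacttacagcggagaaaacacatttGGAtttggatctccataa
ATG8G (chr3:22416924-22416971, plus strand): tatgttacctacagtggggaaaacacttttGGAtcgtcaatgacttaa
ATG8H (chr3:1955219-1955254, minus strand): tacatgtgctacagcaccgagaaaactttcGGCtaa
ATG8I (chr3:5274075-5274110, minus strand): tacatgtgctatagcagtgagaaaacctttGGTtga

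In ATG8H and ATG8I the glycine codon stands directly before the stop codon, so that their products end in the exposed glycine without a cut. In the other genes 2 to 5 codons follow it, with 2 in ATG8C and 5 each in ATG8A and ATG8B. The longest coding regions of the 9 genes were aligned in 36 pairs. Between 56.9% and 85.3% of the aligned bases were shared, gaps left out, with ATG8A and ATG8B the closest. In the exons that pair shared an unbroken run of 53 bases, and the next longest run in any pair was 29 bases. No member had another transcript at 95% identity over 100 bases.

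None of the autophagy genes passed the test between the genotypes. Of the 39 members, 38 had enough counts to be tested, and edgeR called 0 of them at an adjusted p under 0.05 in either direction, whereas 9.53% of all 21196 tested genes were called, 3.94% higher and 5.59% lower. DESeq2 called 0 of the 38 as well, against 9.58% of its genes, and the authors' deposited table lists 0, against 9.31%, with a smallest adjusted p of 0.0881. The deposited log2 fold changes nearly equal those of DESeq2 (for ATG1A, 0.301869 in both), so these counts are not independent of each other. At an unadjusted p under 0.05, edgeR gave 6 of 38 members (15.8%), a share below the 19.2% of all tested genes. All 6 were higher in the libraries labelled naa50-1, where the background was 9.06%. In these whole buds, fewer cells of a type and less RNA per cell cannot be told apart.

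The differences that were measured were small. The log2 fold changes of the 38 tested members ran from -0.15 to 0.54, with a median size of 0.105 against 0.156 for all tested genes. The 95% interval of the difference lay within 1.5-fold in both directions for 31 of 38 members (81.6%), against 56.5% of all tested genes. It lay within 2-fold for 36 of 38 (94.7%), against 76.4%. The exceptions at 2-fold were ATG8E and ATG8H. These comparisons with all tested genes were not matched for expression level. Means over the 6 libraries reached down to 0.105 FPKM (counts scaled to gene length and library size) among all tested genes. The lowest tested member, ATG18D, stood at 3.02 FPKM. The median log2 fold change of the members was 0.10, against -0.01 for all tested genes, and 28 of 38 members (73.7%) had a value above 0, against 48.4%. With single libraries left out, the median ran from 0.0728 (without naa50-1 replicate 3) to 0.123 (without wild type replicate 3). Values above 0 then numbered from 24 of 38 (without wild type replicate 1) to 30 of 38 (without naa50-1 replicate 1), with 25 without naa50-1 replicate 3 and 27 without wild type replicate 2.

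**Figure D1:**
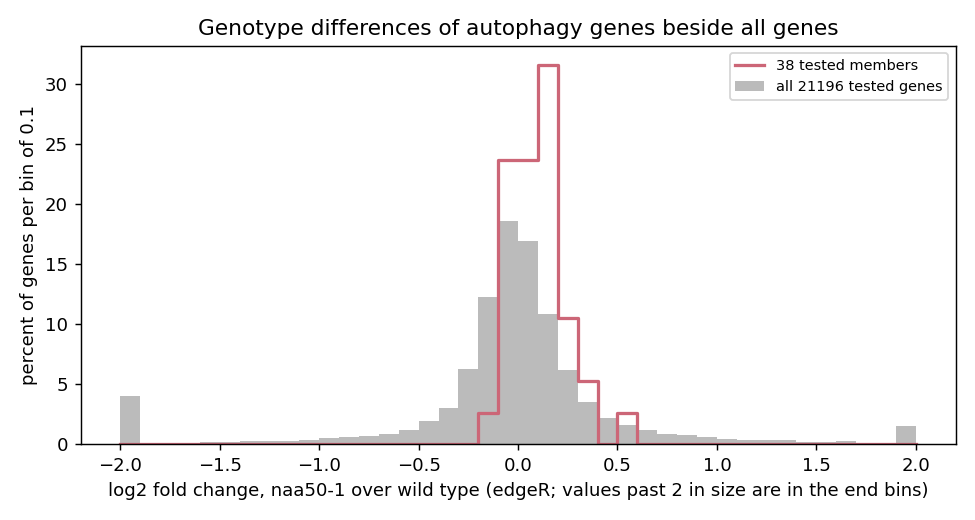
Share of genes (percent, y axis) in each bin of log2 fold change between the libraries labelled naa50-1 and the wild type (x axis), for all 21196 tested genes in grey and for the 38 tested autophagy genes in red. The autophagy genes lie between -0.15 and 0.54, with their highest step between 0.1 and 0.2.

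The replicates were close for most members. The pooled standard deviation of log2 CPM within a genotype label had a median of 0.147 over the tested members and of 0.187 over all tested genes. The latter were not matched to the members for expression level. Among the genes of the machinery it was lowest for ATG6, at 0.0350, and highest for ATG8H, at 0.595. In 6 of 38 members (15.8%) the 3 libraries labelled naa50-1 all lay above the 3 wild-type libraries, and in 0 all lay below. Among all tested genes the groups were without overlap in 24.9%, with 11.6% higher and 13.3% lower, so the share in either direction was below the background and the share that was higher near it.

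**Figure D2:**
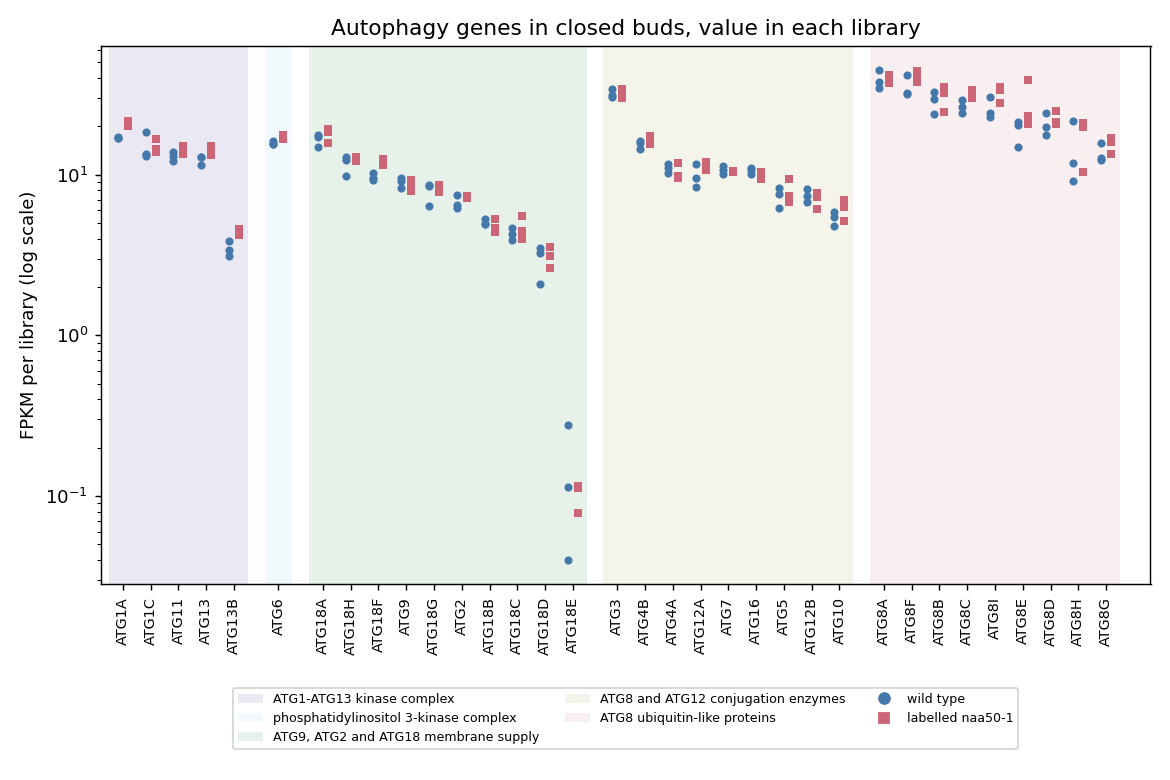
FPKM of 34 autophagy genes in each library on a log axis, grouped by role and ordered by level within a role; circles are wild type and squares are the libraries labelled naa50-1. Most genes lie between 3 and 45 FPKM with circles and squares intermingled, ATG18E lies below 0.3 FPKM, and the squares of ATG1A lie above its circles.

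The ATG1 kinase complex, which receives the signal to start autophagy, is represented by 5 members, of which 4 had a log2 fold change above 0, against 48.4% of all tested genes, and 3 had groups without overlap, all higher, against 11.6%. Their levels are given as FPKM, a measure scaled to gene length and library size that can be compared between genes. ATG1A (AT3G61960, TAIR10 chromosome 3, 22941765 to 22945329, minus strand) encodes one of the kinase subunits and had the smallest p of all members. It stood at 17.0, 17.3 and 16.8 FPKM in the wild-type libraries and at 20.0, 21.3 and 21.7 FPKM in those labelled naa50-1. All 3 of the latter lay above all 3 wild-type values, which were almost equal to each other. The log2 fold change was 0.30 (SE 0.09) and the adjusted p 0.0705 in edgeR, and over 16 alternative settings the adjusted p ran from 0.0675 to 0.212.

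ATG13 and ATG13B encode the regulatory subunit that ties the kinase to nutrient signalling. ATG13B, the less abundant, stood at 3.86, 3.12 and 3.38 FPKM in the wild type and at 4.19, 4.38 and 4.61 FPKM in the libraries labelled naa50-1. Its groups were without overlap, but the gap between them was smaller than the range of the wild-type values (log2 fold change 0.34, SE 0.15, adjusted p = 0.251, edgeR). ATG13 stood at 11.5, 13.0 and 12.9 FPKM and at 13.3, 13.6 and 15.0 FPKM. These groups were also separate, with a smaller difference (0.16, SE 0.10, adjusted p = 0.475, edgeR). ATG11, a scaffold of the complex, had a log2 fold change of 0.10, and ATG1C, another kinase subunit, had 0.00, both with overlapping groups.

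ATG6, the plant counterpart of Beclin, belongs to the lipid kinase complex that marks the young membrane with phosphatidylinositol 3-phosphate. It stood at 16.2, 15.6 and 15.6 FPKM in the wild type and at 17.8, 16.8 and 17.3 FPKM in the libraries labelled naa50-1. The groups were without overlap, by a narrow margin between very even replicates. The log2 fold change was 0.13 (SE 0.09, adjusted p = 0.527, edgeR).

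ATG9, ATG2 and the ATG18 proteins supply the growing membrane. ATG9 is a membrane protein of small vesicles, ATG2 is known from yeast and mammals as a lipid transfer protein, and ATG18 proteins bind phosphatidylinositol 3-phosphate. Of 10 members in this group 9 were tested. A log2 fold change above 0 was found in 7, against 48.4% of all tested genes, and 2 (ATG9, at -0.07, and ATG18B, at -0.09) lay below. ATG18A was the most abundant of the group, at 17.3, 14.8 and 17.6 FPKM in the wild type and 15.7, 19.3 and 18.5 FPKM in the libraries labelled naa50-1. The groups overlapped and the log2 fold change was 0.10 (SE 0.12, adjusted p = 0.739, edgeR).

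Within the same group ATG18F had the smallest p. It stood at 9.29, 10.3 and 9.53 FPKM in the wild type and at 12.5, 11.4 and 11.9 FPKM in the libraries labelled naa50-1. The groups did not overlap, and the log2 fold change was 0.29 (SE 0.10, adjusted p = 0.106, edgeR). ATG18E was the member left out of the test, with 7, 3 and 1 counts in the wild type and 2, 3 and 3 in the libraries labelled naa50-1. At 0.277 FPKM or less in every library it was barely detected, so that a difference of that gene was not detectable at this depth.

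The conjugation enzymes handle ATG8 and ATG12: ATG4 trims ATG8, ATG7 activates both proteins, ATG3 and ATG10 transfer them, and ATG12 joined to ATG5 acts with ATG16 on the membrane. The 9 genes split evenly, with 4 log2 fold changes above 0 and 5 below and a median of -0.02. Groups overlapped in all 9, where 24.9% of all tested genes had groups without overlap. ATG3 was by far the most abundant, at 30.6, 31.4 and 33.9 FPKM in the wild type and 31.0, 30.0 and 34.2 FPKM in the libraries labelled naa50-1. The groups lay over each other (log2 fold change -0.02, SE 0.10, adjusted p = 0.962, edgeR), and the sign changed between settings. ATG12A had the smallest p of the enzymes. It stood at 8.37, 11.6 and 9.60 FPKM and at 11.3, 10.7 and 12.0 FPKM, with wild type replicate 2 within the other group (0.20, SE 0.17, adjusted p = 0.637, edgeR). The exons of ATG4A and ATG5 overlap a gene on the opposite strand over 1445 and 597 bases, and 12 of the 39 members have such an overlap of some length. The strand setting of the counting is not given in the sources used here, so reads of these pairs may not be separated.

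**Figure D3:**
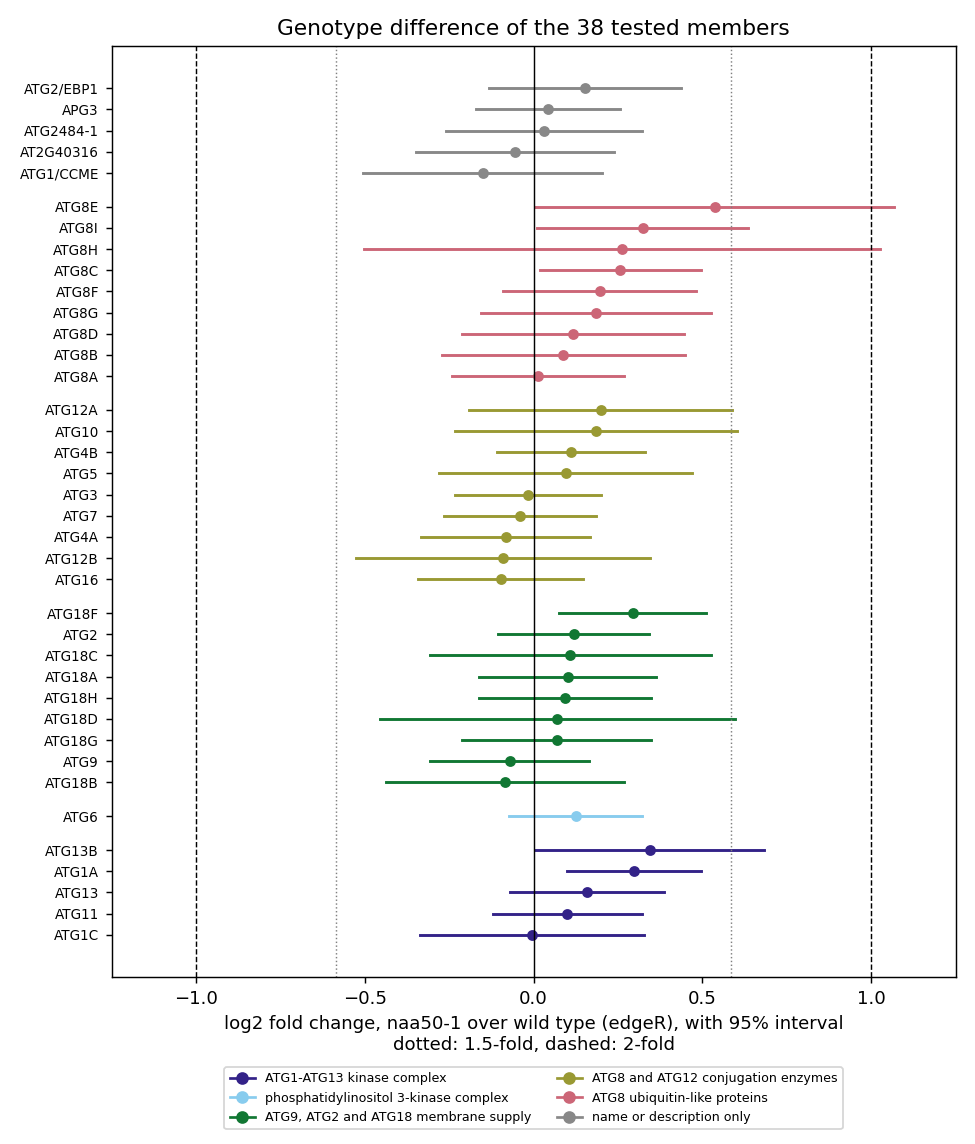
Log2 fold change of each of the 38 tested members between the libraries labelled naa50-1 and the wild type (x axis; points, with 95% intervals from edgeR), grouped by role. Dotted lines mark 1.5-fold and dashed lines 2-fold, and only the intervals of ATG8E and ATG8H reach past a dashed line.

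ATG8 is the protein that coats the autophagosome, and its 9 genes were the most abundant part of the machinery. ATG8A and ATG8F led, at 39.1 ± 4.99 and 35.3 ± 5.67 FPKM in the wild type (SD, n = 3), and ATG8H and ATG8G were lowest, at 14.2 ± 6.53 and 13.6 ± 1.95 FPKM. Neighbours in this order, such as ATG8A and ATG8F or ATG8H and ATG8G, differed by less than their spread. All 9 had a log2 fold change above 0, against 48.4% of all tested genes. The values ran from 0.01 for ATG8A to 0.54 for ATG8E, with a median of 0.20. None of the 9 passed the edgeR threshold, against 9.53% of all tested genes. An unadjusted p under 0.05 was found in 3, all higher, where the share over all tested genes was 9.06%. The signs of ATG8A and ATG8B turned below 0 when wild type replicate 1 or naa50-1 replicate 3 was left out, and that of ATG8A also when wild type replicate 2 was.

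The groups were without overlap in 1 of the 9, which was higher, a share near the 11.6% of all tested genes. That gene, ATG8C, stood at 26.2, 24.0 and 29.1 FPKM in the wild type and at 31.4, 29.9 and 33.8 FPKM in the libraries labelled naa50-1. The lowest of the latter lay just above the highest wild-type value (log2 fold change 0.26, SE 0.11, adjusted p = 0.216, edgeR). ATG8I, whose product needs no trimming, stood at 24.1, 22.8 and 30.3 FPKM and at 33.7, 28.0 and 35.3 FPKM. The groups overlapped, because naa50-1 replicate 2 lay below wild type replicate 3, and the log2 fold change was 0.32 (SE 0.14, adjusted p = 0.239, edgeR).

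ATG8E had the largest value of the family and of all members. It stood at 14.9, 20.4 and 21.3 FPKM in the wild type and at 20.6, 23.2 and 38.7 FPKM in the libraries labelled naa50-1. The high value of naa50-1 replicate 3 carried most of the difference, and the other 2 lay within or just above the wild-type range. The log2 fold change was 0.54 (SE 0.24, adjusted p = 0.256, edgeR). It became 0.21 without that library, 0.39 without wild type replicate 1 and between 0.60 and 0.72 without any one of the others.

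ATG8H, the other gene without codons behind the glycine, varied most between replicates. It stood at 11.7, 9.19 and 21.6 FPKM in the wild type and at 19.8, 10.3 and 20.9 FPKM in the libraries labelled naa50-1. Each label held high and low libraries, and replicate 2 was the lowest in both. The log2 fold change was 0.26 (SE 0.34, adjusted p = 0.774, edgeR). It ranged from 0.03 without wild type replicate 2 to 0.70 without wild type replicate 3.

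ATG8A stood at 38.0, 34.8 and 44.5 FPKM in the wild type and at 39.4, 37.3 and 42.0 FPKM in the libraries labelled naa50-1. The groups covered the same range, and the log2 fold change was 0.01 (SE 0.11, adjusted p = 0.973, edgeR). ATG8F ran from 31.8 to 41.9 FPKM in the wild type and from 37.8 to 44.2 FPKM in the libraries labelled naa50-1 (0.20, SE 0.13, adjusted p = 0.486, edgeR). The remaining ATG8B, ATG8D and ATG8G had log2 fold changes of 0.09, 0.12 and 0.19, with overlapping groups.

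Summed over the 9 genes, ATG8 stood at 203, 206 and 258 FPKM in the wild type and at 255, 226 and 291 FPKM in the libraries labelled naa50-1. Wild type replicate 3 lay above the first and second of the latter, so the groups overlapped. The means were 223 ± 31.1 and 257 ± 32.6 FPKM (SD, n = 3 each), a ratio of 1.16, and the difference was about as large as the SD of either group (p = 0.3, exact two-sided permutation test). With 3 libraries per group the smallest p this test can give is 0.1, so it could not have passed 0.05. The log2 ratio of 0.21 ranged from 0.11 without naa50-1 replicate 3 to 0.33 without wild type replicate 3.

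Shares of the ATG8 pool were compared next. ATG8F made 15.9 ± 0.378% of the summed FPKM in the wild type and 15.9 ± 0.791% under the other label (SD, n = 3). ATG8A went from 17.6 ± 0.951% to 15.5 ± 1.04%, ATG8I from 11.6 ± 0.413% to 12.6 ± 0.569% and ATG8E from 8.50 ± 1.29% to 10.6 ± 2.61%. The 3 values of each label did not overlap for ATG8A and for ATG8I, and overlapped for the other genes of the family. No background share is available for such shares. The level of ATG8A itself had a log2 fold change of 0.01, so its share moved with the levels of the other genes. These shares depend on each other, and their differences were not tested.

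**Figure D4:**
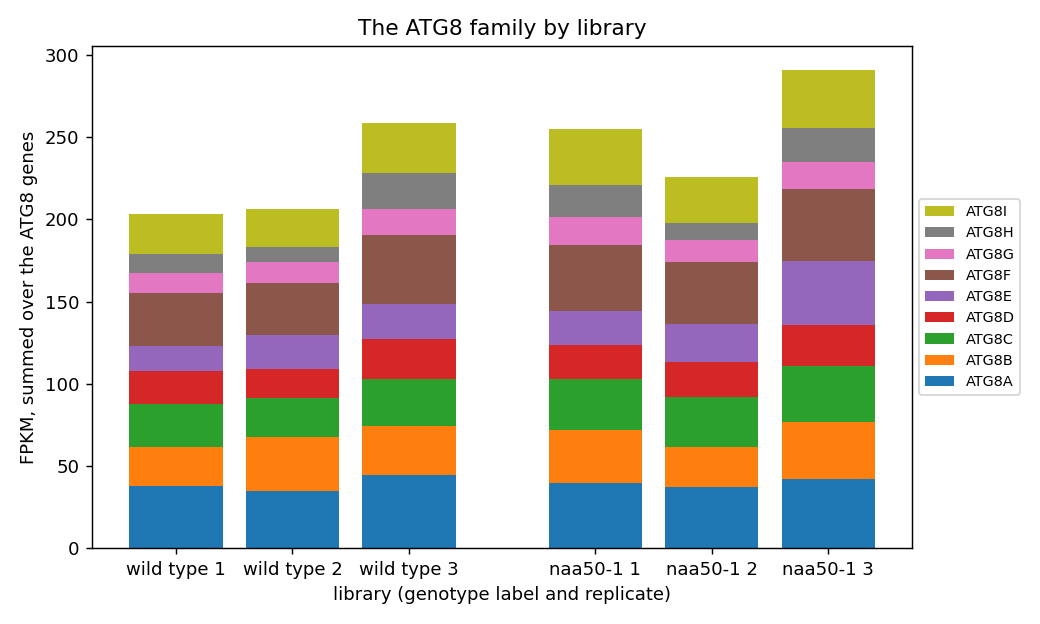
FPKM of the 9 ATG8 genes stacked in each library (y axis starting at 0; x axis, genotype label and replicate, one bar per library). The summed bars reach 203, 206 and 258 FPKM in the wild type and 255, 226 and 291 FPKM in the libraries labelled naa50-1, with ATG8A or ATG8F the widest segment in each of the 6 bars.

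The 5 genes that share only a name or a word with the pathway had log2 fold changes from -0.15 to 0.15. Their groups overlapped, where 24.9% of all tested genes had groups without overlap. EBP1, listed as ATG2, was the most abundant of all members, at 112 ± 10.7 FPKM in the wild type and 125 ± 14.5 FPKM in the libraries labelled naa50-1 (SD, n = 3). Over the 33 tested genes of the machinery alone, the median log2 fold change was 0.11. EdgeR called 0 of them, against 9.53% of all tested genes. The same 6 had an unadjusted p under 0.05, against 19.2%.

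Autophagy also depends on genes that carry other names, and a list of 40 of them was examined, of which 39 were tested. In edgeR 1 was called higher and 1 lower, or 2 of 39 against the background of 9.53%. The median log2 fold change was 0.03. Of 7 genes of TOR and SnRK1, the kinases that restrain and favour autophagy, 6 were tested and 0 passed. KIN10 (AT3G01090), a catalytic subunit of SnRK1, had the smallest p among them (log2 fold change -0.12, SE 0.09, adjusted p = 0.592, edgeR). Further genes of the ATG1 kinase complex gave 0 of 3 and of the lipid kinase complex 0 of 5. The lipid kinase itself, VPS34, showed a log2 difference of 0.11 (SE 0.10, adjusted p = 0.654, edgeR). Among 2 other regulators 0 passed. Over these 4 groups edgeR gave 0 genes at an unadjusted p under 0.05, against 19.2% of all tested genes.

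The gene that fell was TSPO (AT2G47770, TAIR10 chromosome 2, 19568464 to 19569507, plus strand). It encodes a stress-induced membrane protein that binds heme and is itself degraded by autophagy through ATG8. TSPO stood at 3.26, 3.64 and 4.43 FPKM in the wild type and at 0.143, 0.316 and 0.325 FPKM in the libraries labelled naa50-1, from 68, 79 and 91 counts and 3, 7 and 7 counts. Every library labelled naa50-1 was far below every wild-type library. TSPO fell by 3.82 on the log2 scale (SE 0.38, adjusted p = 0.000112, edgeR), or 14.1-fold with a 95% interval of 7.88 to 25.4. On the log2(FPKM + 1) scale, which understates the change of low genes, it fell by 1.92. The summed mature pollen markers moved the same way, from 959 to 1288 CPM down to 61.1 to 68.7 CPM over the 13 genes, and their part in this result was not tested. The other 6 cargo receptors and adaptors of the list did not pass in edgeR, where 9.53% of all tested genes did. NBR1, the receptor for ubiquitinated proteins, had a log2 fold change of 0.12, and ATI2, an ATG8-interacting protein, had 0.21 (SE 0.10, adjusted p = 0.293, edgeR).

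The gene that rose was EXO70B2 (AT1G07000, TAIR10 chromosome 1, 2150158 to 2152541, minus strand), a subunit of the exocyst, which tethers vesicles to membranes. EXO70B2 stood at 3.46, 2.83 and 3.42 FPKM in the wild type and at 5.50, 7.67 and 5.80 FPKM in the libraries labelled naa50-1. The groups were clearly apart, with replicate 2 lowest in the one and highest in the other. EXO70B2 rose 1.95-fold (log2 fold change 0.96, SE 0.18, adjusted p = 0.00577, edgeR). Its relative EXO70B1, known for its part in autophagic transport to the vacuole, stood at 19.7, 16.4 and 20.0 FPKM and at 23.7, 29.4 and 22.6 FPKM. These groups were also without overlap, but the adjusted p was 0.0696 in edgeR (log2 fold change 0.43, SE 0.13). Scaled by library totals only, EXO70B1 passed as a further called gene of the list (0.46, adjusted p = 0.0391, edgeR), which made 3 of 39. None of the 14 other tested genes for closure, trafficking and fusion, among them FREE1, SH3P2 and the VPS genes of vacuolar tethering, passed in edgeR. Over all tested genes 9.53% passed. EXO70B1 and EXO70B2 were the 2 with an unadjusted p under 0.05 among all 16, where the share over all tested genes was 19.2%.

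Genes known to be induced by starvation, a condition under which autophagy is active, were examined as 5 markers. With all libraries, 5 of 5 had a log2 fold change below 0, with a median of -0.56. Of the 5, edgeR called 1 lower, against 5.59% of all tested genes. The sign was not stable for the weakest pair: STR15 was at 0.13 without wild type replicate 2, and DIN10 was at 0.05, 0.27 and 0.06 without wild type replicate 3, naa50-1 replicate 1 and naa50-1 replicate 2. BCAT2 (AT1G10070), an enzyme that degrades branched-chain amino acids, stood at 7.98, 7.85 and 9.0 FPKM in the wild type and at 4.04, 5.38 and 4.82 FPKM in the libraries labelled naa50-1. The groups did not overlap, and BCAT2 fell by 0.80 on the log2 scale (SE 0.16, adjusted p = 0.0083, edgeR). Proline dehydrogenase 1 (AT3G30775) ranged from 75.1 to 142 FPKM in the wild type and from 65.1 to 77.6 FPKM in the libraries labelled naa50-1 (-0.56, SE 0.21, adjusted p = 0.149, edgeR). ASN1, an asparagine synthetase induced by darkness, stood at 51.5, 21.1 and 50.8 FPKM and at 29.8, 22.0 and 30.9 FPKM (-0.58, SE 0.29, adjusted p = 0.33, edgeR). Wild type replicate 2 was the lowest of the ASN1 values. Single libraries decided both values. ASN1 was at -0.89 without wild type replicate 2 (adjusted p = 0.00575, edgeR), at -0.39 without wild type replicate 1 and at -0.40 without wild type replicate 3. Proline dehydrogenase 1 was at -0.76 without wild type replicate 1 (adjusted p = 0.0213, edgeR) and at -0.30 without wild type replicate 3. The summed photosynthesis markers stood at 17882 to 21085 CPM against 20338 to 26691 CPM in the wild type, with overlapping groups, and their part in these values was not tested.

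**Figure D5:**
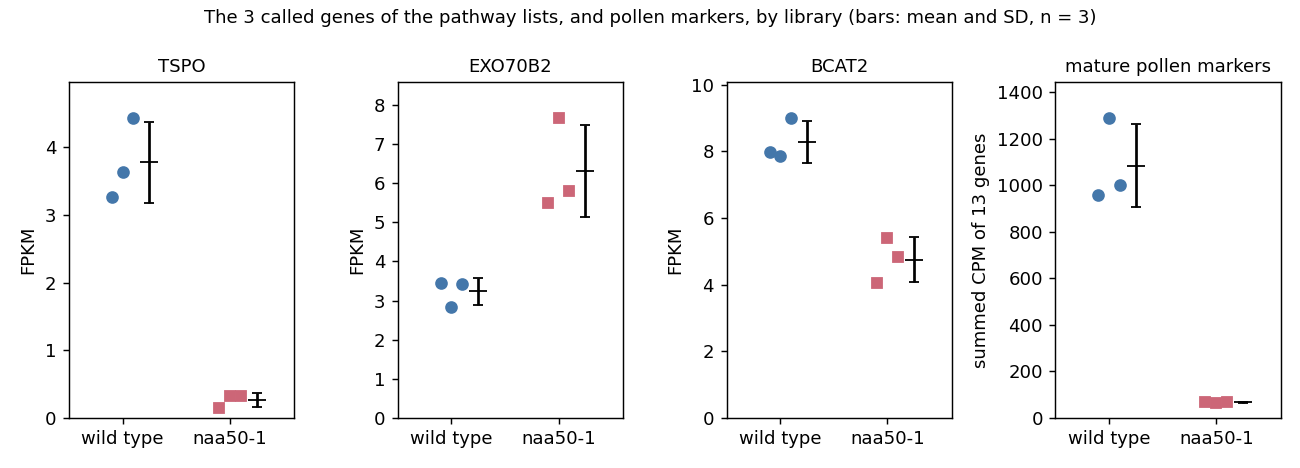
Values by library of TSPO, EXO70B2 and BCAT2 in FPKM and of the 13 mature pollen markers in summed CPM (y axes from 0), for the wild type (circles) and the libraries labelled naa50-1 (squares), with the mean and SD of 3 libraries beside the points. TSPO, BCAT2 and the pollen markers lie lower, and EXO70B2 higher, in the libraries labelled naa50-1, without overlap between the groups.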

How the data were processed

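Total RNA of closed buds was sequenced in 6 libraries, 3 per genotype. The submitters' processing notes name HISAT2 2.0.5 and TAIR10. The read counter is not given in the sources used here. The authors deposited whole-number counts per gene and FPKM values, which match the counts over gene length after median-of-ratios scaling. The authors' deposited comparison table holds a normalized signal per group (not used), a log2 fold change and a p-value per gene. Its test is not stated. Its log2 fold changes nearly equal those of DESeq2 here (for TSPO, -3.84591 in both). The deposited table and DESeq2 are therefore not independent results.

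Groups and replicate numbers came from the sample titles. Counts were scaled by TMM, filtered by filterByExpr and tested with edgeR 4.0.16 (quasi-likelihood, R 4.3.3), with genotype alone as covariate, with p-values adjusted by Benjamini-Hochberg over all tested genes and a threshold of 0.05. A total of 204 unannotated features (at most 0.244% of counts) stayed in the fit. No library was a duplicate: chi-square values between replicates were 12.4 to 26.9 per degree of freedom. Nothing in the labels says that replicates came from separate plants beyond the word biological, and p-values measure the spread between these libraries.

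The rule for members uses no measured value, but the members and the pathway, starvation and marker lists were chosen with earlier results of these data known. Named were NAA50, the 8 tested members with the smallest p, in each role the most abundant member and the one with the smallest p, all ATG8 genes, and of the other lists the called genes and the smallest p per role. Other genes were named after their values were seen. The genes AT3G53930 and AT2G45260, also taken by this rule, carry no gene name in the files and are counted in the lists. The same holds for AT5G66930, AT1G49180, AT1G77890, AT2G32760, AT4G08540, AT3G43230 and AT3G01090 (KIN10) of the wider list. The roles of the listed genes were assigned here. AT2G45260 has near-identical transcripts in 5 other genes, so its value is uncertain. Deposited coordinates of all 39 members equalled RefSeq TAIR10.1 exon bounds. Transcripts were compared with blastn 2.17.0. Alternatives were other scalings and filters, DESeq2 1.42.0, limma 3.58.1 on voom values and on log2(FPKM + 1) and log2(FPKM + 0.1), a threshold of 0.01, a block for replicate number, and leaving out single libraries. Starvation markers were put through them after the data were seen.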

Additional observations from a re-analysis of the deposited data

How the results depend on the processing

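In each of 16 alternatives, 0 autophagy genes were called, and the median log2 fold change of the tested members stayed between 0.07 and 0.13. The count of all genes called was 2021, and 1336 at an adjusted p under 0.01; leaving out 1 library gave 1645 to 1926. TSPO, EXO70B2 and BCAT2 passed in all 16, with log2 fold changes of -4.00 to -1.92, 0.78 to 1.06 and -0.90 to -0.69. The wider list had 2 called genes in every setting but library totals only, where it had 3. Leaving out 1 library gave 1 to 2 called starvation markers. Signs turned for values near 0: with 1 library left out, log2 fold changes ran from -0.061 to 0.12 for ATG8A, from -0.035 to 0.23 for ATG8B, from -0.071 to 0.028 for ATG3 and from -0.13 to 0.030 for AT2G45260, a gene of the wider list, and ATG3 was at 0.013 with library totals only. ATG8A was below 0 without wild type replicate 1, wild type replicate 2 or naa50-1 replicate 3, and ATG8B without the first or the last of these. The cause was not tested. Over all tested genes, deviations of libraries with the same replicate number correlated weakly (0.00, 0.06 and 0.10). Libraries of different numbers were not compared in this way, and pairing among the members was not tested. With the replicate number as a block 1969 genes were called, 0 of them members, and the members' median was 0.10. The block lowered the adjusted p of ATG8E to 0.0968, of ATG8I to 0.125 and of ATG8H to 0.495 (edgeR). It raised that of ATG1A to 0.114 and of ATG18F to 0.161. With 3 libraries per genotype, the log2 standard errors of the tested members ran from 0.088 (ATG1A) to 0.34 (ATG8H). ATG1A, at 1.23-fold, had the smallest adjusted p of the members and did not pass (0.0705, edgeR). Small differences may have been missed, and the smallest difference that could be detected was not determined.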
